A study of Mus musculus with 9 samples.

Results

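The genes described here are subunits of the transcription factor NF-kB and proteins that restrain or modulate it. They were chosen by name, as the probe sets whose single gene symbol was on the list, and each measured gene had 1 such probe set. Of 10 listed genes, 9 had a probe set (4 subunits, Nfkb2, Rel, Rela and Relb, and 5 inhibitors, Nfkbia, Nfkbie, Nfkbiz, Tnfaip3 and Bcl3), out of 17731 genes tested in all, and Nfkb1 was not analysed here.

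NF-kB is a dimer of Rel family proteins that is held in the cytoplasm by IkB proteins. Signals from Toll-like, interleukin-1 and TNF receptors activate the IkB kinase, the IkB protein is degraded and the dimer enters the nucleus. Its target genes include several of its own inhibitors, which gives negative feedback, and in myeloid cells it drives inflammatory and survival genes.

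Expression was measured on Affymetrix arrays, 1 per RNA sample and 3 per group. All 3 groups were C57BL6 bone marrow cells immortalized with HoxA9, a leukemia oncogene. They had received a pSF91 retroviral vector, were transplanted into irradiated mice and were recovered 4 weeks later by sorting GFP-positive marrow cells. IDH1mut cells carried pSF91-IDH1mut-IRES-GFP, IDH1wt cells carried pSF91-IDH1wt-IRES-EGFP and CTL cells carried the empty EGFP vector. IDH1 encodes an isocitrate dehydrogenase of the cytosol, and its mutants found in cancer produce the metabolite hydroxyglutarate. The labels used here name neither the mutation, the species of the insert nor the age of the mice, and nothing in them says whether the 3 replicates of a group came from separate transductions or mice. The p-values then measure only the spread between these samples, which may be technical. Levels are deposited log2 values, and a difference is the first group's mean minus the second's, ± its moderated standard error (SE). Rose and fell mark an adjusted p under 0.05, and the share of all genes that passed is given beside the members' count.

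The array medians lay between 4.65 and 4.72, and arrays of a group correlated at 0.992 to 0.997 across genes. Markers of mature neutrophils averaged 12.26 to 12.36 on IDH1mut arrays, 11.73 to 11.81 on IDH1wt arrays and 11.56 to 11.72 on CTL arrays. The deposited values carry no zero and no detection call, so no marker can be called absent. Mouse Idh1 averaged 10.6 in IDH1mut, 10.6 in IDH1wt and 10.7 in CTL, and this probe set checks no label while the insert's species is not known. Retroviral integration sites and the number of founder clones were not analysed here, so that a vector's cargo and the clones that carried it cannot be told apart.

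Promoters are shown for 5 members, because the letters of the kappaB consensus, the decamer that NF-kB dimers bind, occurred in them whether the gene rose, fell or did not pass the test. The sequences are the 150 bases before a start site of the gene, from RefSeq on build GRCm38.p6. Capitals mark bases covered by a consensus match on either strand, with overlapping matches run together. Nfkbia (chr12:55492648-55492797, minus strand) and Tnfaip3 (chr10:19015411-19015560, minus strand) rose in IDH1mut cells, Nfkbie (chr17:45555550-45555699, plus strand) fell, and Rel (chr11:23770970-23771119, minus strand) and Nfkb2 (chr19:46304587-46304736, plus strand) did not pass the test against CTL.
Nfkbia: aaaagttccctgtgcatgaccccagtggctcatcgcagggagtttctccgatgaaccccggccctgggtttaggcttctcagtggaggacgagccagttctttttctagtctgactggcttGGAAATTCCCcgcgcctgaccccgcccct
Tnfaip3: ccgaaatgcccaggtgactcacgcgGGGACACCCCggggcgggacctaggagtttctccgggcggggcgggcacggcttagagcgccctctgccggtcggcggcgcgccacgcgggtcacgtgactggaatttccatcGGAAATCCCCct
Nfkbie: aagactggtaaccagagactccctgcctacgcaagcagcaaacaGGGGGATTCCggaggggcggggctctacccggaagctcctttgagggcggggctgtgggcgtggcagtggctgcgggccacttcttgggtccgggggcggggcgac
Rel: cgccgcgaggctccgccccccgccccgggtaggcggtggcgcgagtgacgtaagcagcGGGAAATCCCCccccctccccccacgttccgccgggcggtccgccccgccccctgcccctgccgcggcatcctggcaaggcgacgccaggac
Nfkb2: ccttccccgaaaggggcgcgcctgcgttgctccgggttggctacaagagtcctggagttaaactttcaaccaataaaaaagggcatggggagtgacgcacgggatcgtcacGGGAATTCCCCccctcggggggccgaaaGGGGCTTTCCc

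The match in Nfkbia began 29 bases before the start site, and the Tnfaip3 matches began 125 and 12 bases before it. In Nfkbie the match began 106 bases before the start site. Windows of 300 bases, from 250 before to 50 after a start site, were in the table for 7 of the 9 members, all but Relb and Nfkbiz. At least 1 window of 6 of these 7 genes held the consensus, Rela being the exception, and the Bcl3 match lay after the start site. The consensus was found in 8.46% of all 32851 windows and for 9.55% of 27025 genes. Of the 2 Tnfaip3 windows, 1 held it, as did all 3 Nfkb2 windows. The Nfkb2 sequence shown lies before a start site within the gene's span. The shorter stretch of 150 bases before the other Nfkb2 and Tnfaip3 start sites held no match. A match describes the letters only, and binding was not measured.

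In IDH1mut against CTL, Nfkbiz, Tnfaip3 and Nfkbia, listed as inhibitors, rose 1.56-, 1.45- and 1.44-fold, and the subunit Relb rose 1.35-fold. Nfkbie fell 1.21-fold. The subunits Nfkb2, Rel and Rela did not pass, nor did Bcl3. In all, 4 of 9 members rose and 1 fell, where 10.1% of all genes rose and 10.6% fell (20.7% changed). Without CTL replicate 1 or without CTL replicate 3 the members that passed numbered 3 in place of 5. Over all genes 2370 and 2603 passed in these fits, in place of 3663. By listed role, 3 of 5 inhibitors rose and 1 fell, and 1 of 4 subunits rose. Nfkbiz and Bcl3 count there as inhibitors, though the proteins they encode can also activate. The median log2 difference was 0.17 over the members, 0.53 over the inhibitors and 0.11 over the subunits, against -0.04 over all genes. In such bulk samples fewer cells of a type and less RNA per cell cannot be told apart. Gene positions given below are those of RefSeq on GRCm38.p6.

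**Figure D1:**
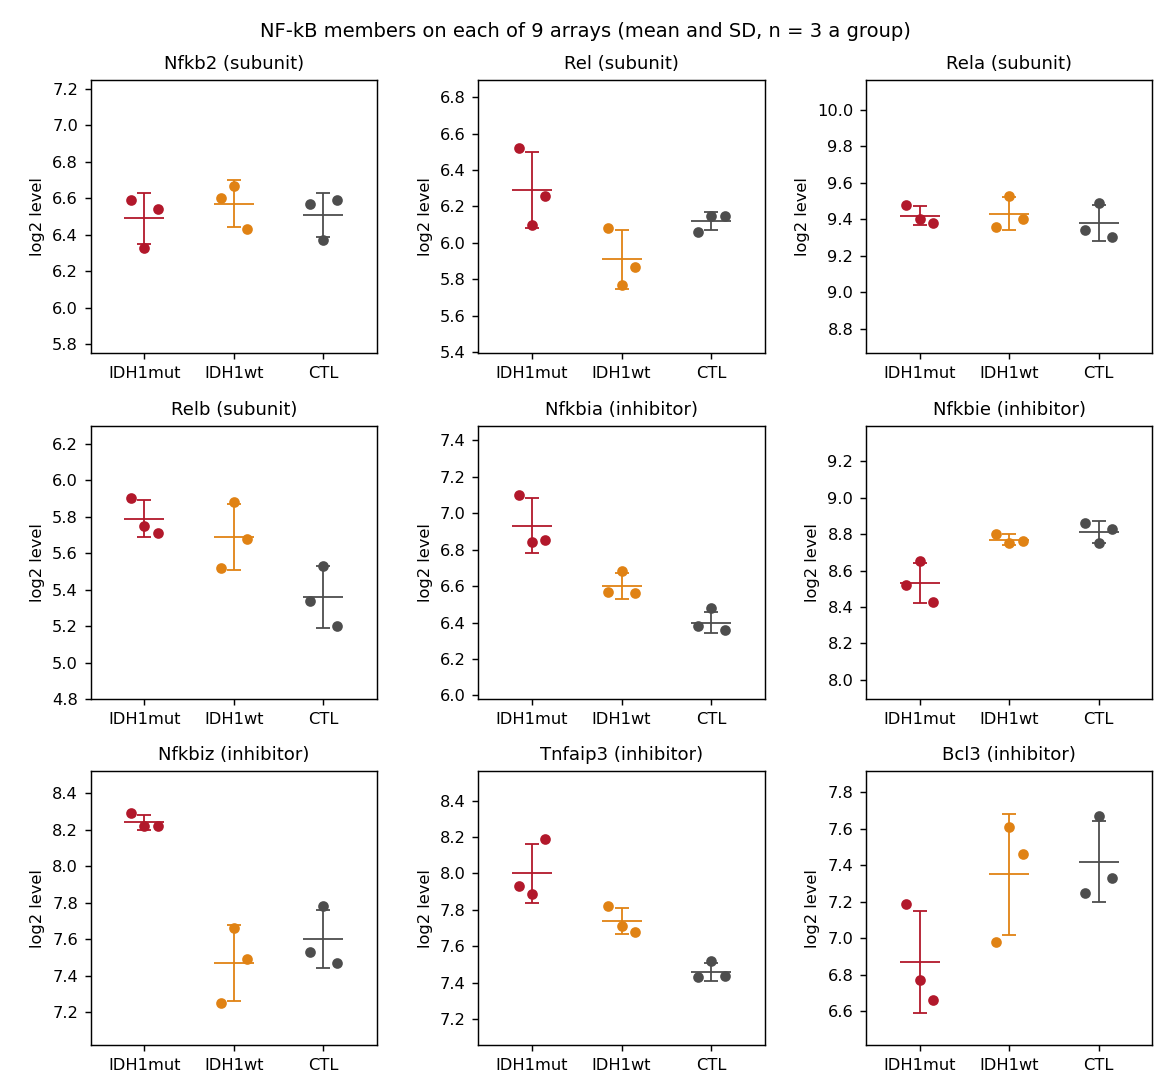
Deposited log2 level (y axis) of each member on each array (points), with group mean and SD (bar, n = 3), for IDH1mut, IDH1wt and CTL. Every panel spans the same range of log2 units. Nfkbiz, Nfkbia and Tnfaip3 are higher on all 3 IDH1mut arrays than on any other array, and the 3 groups of Nfkb2 and Rela overlap.

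Nfkbia (probe set 1420089_at, gene at chr12:55489409-55492647) encodes IkB-alpha, the inhibitor that is degraded first and rebuilt quickly as an NF-kB target. It read 7.10, 6.84 and 6.85 in IDH1mut, 6.57, 6.68 and 6.56 in IDH1wt and 6.38, 6.48 and 6.36 in CTL. No pair of groups overlapped, with IDH1mut highest and CTL lowest. The difference was 0.53 ± 0.10 (SE, n = 3 against 3; adjusted p = 0.00344) in IDH1mut against CTL. IDH1wt against CTL did not pass, at 0.20 ± 0.10 (95% interval -0.02 to 0.42; adjusted p = 0.334), nor did IDH1mut against IDH1wt, at 0.33 ± 0.10 (95% interval 0.11 to 0.55; adjusted p = 0.052).

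Tnfaip3 (probe set 1433699_at, gene at chr10:19000910-19015410) encodes A20, a ubiquitin-editing enzyme that shuts off signalling upstream of the IkB kinase. Its levels were 7.93, 7.89 and 8.19 in IDH1mut, 7.82, 7.71 and 7.68 in IDH1wt and 7.43, 7.52 and 7.44 in CTL. Again the groups formed steps without overlap, IDH1mut above IDH1wt and IDH1wt above CTL. The step from CTL was 0.54 ± 0.10 in IDH1mut (adjusted p = 0.00346) and, without passing, 0.27 ± 0.10 in IDH1wt (95% interval 0.05 to 0.50; adjusted p = 0.205). Between IDH1mut and IDH1wt the difference was 0.26 ± 0.10 (adjusted p = 0.117).

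Nfkbiz (probe set 1417483_at, gene at chr16:55811375-55838954) encodes IkB-zeta, an inducible nuclear IkB protein that can also act as a coactivator on secondary response genes. IDH1mut arrays read 8.29, 8.22 and 8.22, against 7.25, 7.66 and 7.49 on IDH1wt arrays and 7.53, 7.78 and 7.47 on CTL arrays. The IDH1wt and CTL arrays overlapped, and every IDH1mut array lay above both. Nfkbiz was 1.71-fold higher in IDH1mut than in IDH1wt (0.77 ± 0.12; adjusted p = 0.00224), the only member to pass in that comparison, and 0.65 ± 0.12 higher than in CTL (adjusted p = 0.00338). In IDH1wt against CTL it read -0.13 ± 0.12 (95% interval -0.39 to 0.14; adjusted p = 0.643).

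Nfkbie (probe set 1458299_s_at, gene at chr17:45555700-45563169) encodes IkB-epsilon, a slower feedback inhibitor. It read 8.52, 8.65 and 8.43 in IDH1mut, 8.80, 8.75 and 8.76 in IDH1wt and 8.86, 8.75 and 8.83 in CTL. IDH1mut arrays were lowest, and the other 2 groups overlapped. The fall of 0.28 on the log2 scale (SE 0.09) in IDH1mut against CTL only just passed, at adjusted p = 0.0492. The call was lost on leaving out any array but IDH1mut replicate 2, with values of -0.31 to -0.23 and adjusted p from 0.0554 (without IDH1wt replicate 1) to 0.159 (without CTL replicate 1). Neither other comparison passed, with -0.23 ± 0.09 in IDH1mut against IDH1wt (adjusted p = 0.119) and a 95% interval of -0.24 to 0.15 in IDH1wt against CTL. The probe set's name ends in _s_at, the suffix for probes that can match transcripts of more than 1 gene.

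Bcl3 (probe set 1418133_at, gene at chr7:19808462-19822824) encodes a nuclear IkB protein that binds p50 and p52 dimers and can repress or activate. Its levels were 7.19, 6.77 and 6.66 in IDH1mut, 6.98, 7.61 and 7.46 in IDH1wt and 7.25, 7.67 and 7.33 in CTL. IDH1mut arrays lay below all CTL arrays, with IDH1mut replicate 1 close to CTL replicate 1, and the IDH1wt arrays overlapped both groups. The difference of -0.54 ± 0.18 in IDH1mut against CTL did not pass (95% interval -0.95 to -0.14; adjusted p = 0.0583). It passed without IDH1mut replicate 1 (-0.70; adjusted p = 0.0247) and without IDH1wt replicate 1 (-0.54; adjusted p = 0.0295). IDH1mut against IDH1wt gave -0.48 ± 0.18 (adjusted p = 0.121), which passed without IDH1wt replicate 1 (-0.66; adjusted p = 0.039). IDH1wt against CTL gave -0.07 ± 0.18 (95% interval -0.47 to 0.34; adjusted p = 0.888).

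Among the subunits, Relb (probe set 1417856_at, gene at chr7:19606217-19629438) encodes the partner of p52 in the non-canonical pathway. Relb read 5.90, 5.75 and 5.71 in IDH1mut, 5.52, 5.88 and 5.68 in IDH1wt and 5.34, 5.53 and 5.20 in CTL. Both IDH1 groups were higher on average than CTL, IDH1mut without overlap and IDH1wt with 1 array just below the highest CTL array. The difference from CTL was 0.43 ± 0.12 in IDH1mut (adjusted p = 0.0257) and 0.34 ± 0.12 in IDH1wt (95% interval 0.07 to 0.60), which did not pass (adjusted p = 0.188). Between IDH1mut and IDH1wt it was 0.10 ± 0.12 (95% interval -0.17 to 0.36; adjusted p = 0.68). The call in IDH1mut was lost without CTL replicate 1 (adjusted p = 0.0802), CTL replicate 3 (0.102), IDH1mut replicate 1 (0.0808) or IDH1mut replicate 2 (0.0544).

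Rel (probe set 1420710_at, gene at chr11:23736847-23770969) encodes c-Rel, a transactivating subunit prominent in lymphoid and myeloid cells. It read 6.52, 6.10 and 6.26 in IDH1mut, 6.08, 5.77 and 5.87 in IDH1wt and 6.06, 6.15 and 6.15 in CTL. IDH1mut arrays were all above IDH1wt arrays, and CTL arrays overlapped both. No comparison passed: the difference was 0.17 ± 0.12 in IDH1mut against CTL (adjusted p = 0.37), -0.21 ± 0.12 in IDH1wt against CTL (adjusted p = 0.409) and 0.39 ± 0.12 in IDH1mut against IDH1wt (95% interval 0.12 to 0.65; adjusted p = 0.0595). The last passed without IDH1wt replicate 1 (0.47; adjusted p = 0.0456) and without IDH1mut replicate 2 (0.48; adjusted p = 0.0415).

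Rela (probe set 1419536_a_at, gene at chr19:5637442-5648134) encodes p65, the main transactivating subunit of the canonical dimer, and Nfkb2 (probe set 1425902_a_at, gene at chr19:46300994-46312400) encodes p100, which is processed to p52. Rela read 9.48, 9.40 and 9.38 in IDH1mut, 9.36, 9.53 and 9.40 in IDH1wt and 9.34, 9.49 and 9.30 in CTL. Nfkb2 read 6.59, 6.33 and 6.54 in IDH1mut, 6.60, 6.67 and 6.43 in IDH1wt and 6.57, 6.37 and 6.59 in CTL. The 3 groups overlapped for both genes. In IDH1mut against CTL the 95% interval of the log2 difference was -0.17 to 0.25 for Rela (0.04 ± 0.09) and -0.26 to 0.22 for Nfkb2 (-0.02 ± 0.11). For IDH1mut against IDH1wt the intervals were -0.22 to 0.20 for Rela and -0.32 to 0.17 for Nfkb2, and for IDH1wt against CTL -0.15 to 0.26 for Rela and -0.19 to 0.30 for Nfkb2. The processing and location of these proteins were not measured.

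**Figure D2:**
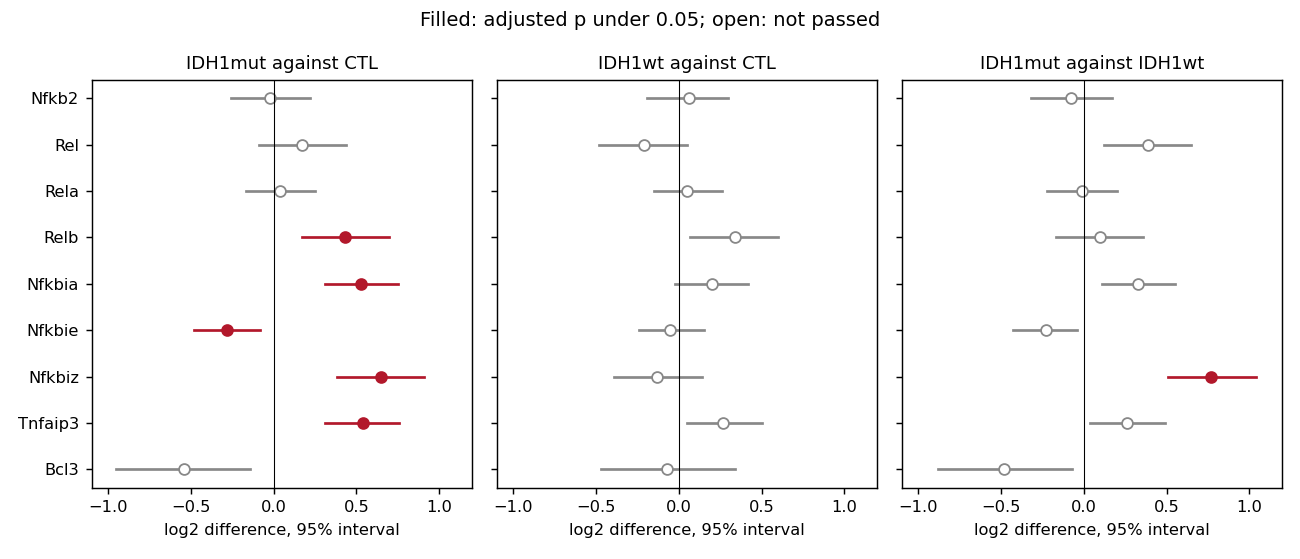
Log2 difference (x axis; points) with its 95% interval (lines) of each member in the 3 comparisons. Filled red points passed at an adjusted p under 0.05, and open points did not. In IDH1mut against CTL 5 members are filled, in IDH1wt against CTL 0, and in IDH1mut against IDH1wt Nfkbiz alone, at 0.77.

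With wild-type IDH1, 0 of 9 members rose or fell against CTL by limma, where 1.62% of all genes rose and 0.711% fell (2.33% changed). At an unadjusted p under 0.05 there were 2, Relb and Tnfaip3, both higher. Both comparisons with CTL share its 3 arrays. In IDH1mut against IDH1wt, 1 of 9 members rose and 0 fell, where 6.54% of all genes rose and 6.78% fell (13.3% changed). There 3 members passed without IDH1wt replicate 1 and 2 without IDH1mut replicate 2. Over all genes 1619 and 1528 passed in these fits, in place of 2363. In this comparison 6 members had an unadjusted p under 0.05. The share of all genes at that unadjusted cut was not taken for either comparison, and the shares above do not measure it. Arrays did not overlap for 6 of 9 members in IDH1mut against CTL, where this held for 37.8% of all genes. They did not overlap for 2 of 9 (23.6% of all genes) in IDH1wt against CTL and for 5 of 9 (29.5% of all genes) in IDH1mut against IDH1wt.

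The 3 members whose group means ranged widest were Nfkbiz (0.77), Bcl3 (0.54) and Tnfaip3 (0.54). The genes with the nearest profile, by root mean square distance between log2 values centred over the 9 arrays, were Agrn (0.09) and Vps9d1 (0.11) for Nfkbiz. They were Dnajc7 (0.12) and Il22ra2 (0.14) for Bcl3, and Jak2 (0.05) and Fnip1 (0.07) for Tnfaip3. The median distance to all genes was 0.40 for Nfkbiz, 0.36 for Bcl3 and 0.30 for Tnfaip3. Jak2, a kinase of cytokine receptors, averaged 7.76 ± 0.14 in IDH1mut, 7.51 ± 0.05 in IDH1wt and 7.19 ± 0.03 in CTL (SD, n = 3 each).

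Other genes of the pathway were followed in 4 lists. Over all genes 10.1% rose and 10.6% fell in IDH1mut against CTL, and 1.62% and 0.711% in IDH1wt against CTL. In IDH1mut against IDH1wt the shares were 6.54% and 6.78%. The counts of these lists, and of the marker lists below, are to be read beside these shares. Of 19 measured inhibitors outside the members, 5 rose and 2 fell in IDH1mut against CTL, with a median log2 difference of 0.17. Nfkbid, which encodes IkB-NS, another nuclear IkB protein, was the furthest up. It read 8.48, 8.25 and 8.14 in IDH1mut, 7.43, 7.72 and 7.68 in IDH1wt and 7.49, 7.41 and 7.28 in CTL, so that every IDH1mut array lay above the rest. It rose by 0.90 ± 0.12 in IDH1mut against CTL (adjusted p = 0.000449) and by 0.68 ± 0.12 in IDH1mut against IDH1wt (adjusted p = 0.00397). Itch, a ubiquitin ligase that works with A20, was higher than CTL in both IDH1 groups, by 0.89 ± 0.21 in IDH1mut (adjusted p = 0.0108) and 1.23 ± 0.21 in IDH1wt (adjusted p = 0.0115, and 0.0593 without IDH1wt replicate 3). Rnf11, a further partner of A20, rose by 0.74 ± 0.21 in IDH1mut against CTL, a call lost without CTL replicate 1, IDH1mut replicate 2 or IDH1mut replicate 3 (adjusted p up to 0.097). Both genes read near the array medians of 4.65 to 4.72. Itch read 3.81 to 4.54 in CTL, 5.18 to 5.67 in IDH1wt and 4.92 to 5.46 in IDH1mut. Rnf11 read 3.89 to 4.94 in CTL and 5.03 to 5.41 in IDH1mut. Nfkbil1 fell by 0.58 (SE 0.16), a call lost without CTL replicate 1 or CTL replicate 3 (up to 0.0793). Tnip1, an A20-binding protein, was the other to fall, by 0.30 (SE 0.09), and lost its call without any 1 of the 6 CTL and IDH1mut arrays (up to 0.127). The list counted 3 rises and 0 falls without CTL replicate 1, 3 and 1 without IDH1mut replicate 2 or 3, and 5 and 0 without CTL replicate 3.

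In IDH1mut against IDH1wt, 6 of these 19 inhibitors rose and 0 fell. With Nfkbid, N4bp1 (0.49 ± 0.11), Irak3 (0.47 ± 0.12) and Zfand6 (0.46 ± 0.10) differed most. Irak3 encodes IRAK-M, which blocks Toll-like receptor signalling. It had fallen by 0.70 (SE 0.12) in IDH1wt against CTL and was -0.22 ± 0.12 in IDH1mut against CTL (adjusted p = 0.248). The N4bp1 call was lost without IDH1wt replicate 1 or 3 (up to 0.0617). The Irak3 call against IDH1wt was lost without IDH1wt replicate 2 or 3 or IDH1mut replicate 2 or 3 (up to 0.0915), and its fall in IDH1wt without CTL replicate 1 or 3 or IDH1wt replicate 2 or 3 (up to 0.0714). In IDH1wt against CTL, 1 of the 19 rose and 1 fell. Without IDH1wt replicate 3 the rises against IDH1wt numbered 3.

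Of 17 measured kinases and ubiquitin ligases upstream of the IkB proteins, 6 rose and 1 fell in IDH1mut against CTL, with a median of 0.22. Map3k8 encodes TPL2, a kinase that p105 holds inactive. It read 6.32, 6.14 and 6.26 in IDH1mut, 6.15, 6.13 and 5.94 in IDH1wt and 5.35, 5.16 and 5.20 in CTL. Both IDH1 groups lay clear of CTL and overlapped each other. Map3k8 rose by 1.00 ± 0.10 in IDH1mut (adjusted p = 0.000102) and by 0.83 ± 0.10 in IDH1wt (adjusted p = 0.00167), the only gene of this list to pass there. Birc2, the ubiquitin ligase cIAP1, rose by 0.61 ± 0.09 in IDH1mut against CTL. Map3k7, the kinase TAK1, rose by 0.47 ± 0.09 and its partner Tab3 by 0.43 ± 0.11, with the Tab3 call lost without CTL replicate 1 (adjusted p = 0.053). Map3k7 read 7.68, 7.65 and 7.77 in IDH1mut, 7.70, 7.70 and 7.49 in IDH1wt and 7.28, 7.22 and 7.19 in CTL. Tab3 read 8.02, 8.04 and 8.30 in IDH1mut, 8.07, 8.16 and 7.95 in IDH1wt and 7.66, 7.63 and 7.77 in CTL. For both genes the IDH1wt arrays overlapped the IDH1mut arrays and lay above all CTL arrays, without passing. Fbxw11 was the gene that fell, by 0.39 (SE 0.11), a call lost without CTL replicate 1 or 3 or IDH1mut replicate 2 or 3 (adjusted p up to 0.1). In IDH1mut against IDH1wt, 2 of 17 rose, Birc2 (0.38 ± 0.09) and Ikbkg (0.38 ± 0.11), and Fbxw11, a ubiquitin ligase subunit that recognises phosphorylated IkB, fell by 0.66 (SE 0.11). Ikbkg lost its call without any 1 of 8 arrays, all but IDH1wt replicate 1 (adjusted p up to 0.167). Birc2 lost it without IDH1wt replicate 2 or 3 or IDH1mut replicate 3 (up to 0.0589). Ikbkb, a catalytic kinase gene, did not pass, at -0.09 ± 0.14 in IDH1mut against CTL (adjusted p = 0.718). It read 4.64 to 5.28 over all arrays, near the array medians of 4.65 to 4.72. Chuk, also listed, was not among the 17 measured genes.

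Receptors and adaptors rose in 7 and fell in 4 of 23 measured genes in IDH1mut against CTL, with a median of 0.03. Of all genes 10.1% rose and 10.6% fell there. Cd14, the lipopolysaccharide co-receptor, read 8.11, 7.30 and 7.81 in IDH1mut, 8.87, 8.45 and 8.64 in IDH1wt and 9.27, 9.07 and 9.32 in CTL. It fell by 1.48 (SE 0.18) in IDH1mut against CTL and by 0.91 (SE 0.18) against IDH1wt. Tlr4, which signals with Cd14, rose by 0.74 ± 0.17 (adjusted p = 0.0114, and 0.0524 without CTL replicate 1), Tlr2 by 0.71 ± 0.11 and the adaptor Tirap by 0.66 ± 0.10. Tlr4 read 4.03 to 4.43 in CTL and 4.90 to 5.10 in IDH1mut, near the array medians of 4.65 to 4.72. The co-receptor Cd14 and these Toll-like receptor genes thus had opposite signs. Against IDH1wt, 4 of 23 rose and 2 fell in IDH1mut, with 2 rises without IDH1wt replicate 1 or 3 or IDH1mut replicate 1 or 2. The falls numbered 3 without IDH1mut replicate 1 and 1 without any other array, and Ltbr, the lymphotoxin beta receptor gene, lost its call without any 1 of 8 arrays, all but IDH1mut replicate 1 (adjusted p up to 0.139). Tirap and Bcl10 (each 0.71; SE 0.10 and 0.12) and Tlr2 (0.37 ± 0.11) rose there, Tlr2 with a call lost without any 1 of 7 arrays, all but CTL replicate 2 and IDH1mut replicate 3 (up to 0.133). Malt1, the protease partner of Bcl10, was the 1 gene of 23 to pass in IDH1wt against CTL (0.54 ± 0.09; adjusted p = 0.0124, and 0.0544 without CTL replicate 1).

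Of 40 measured target genes outside the members, 8 rose and 6 fell in IDH1mut against CTL, where 10.1% of all genes rose and 10.6% fell. Their median of 0.03 lay near that of all genes. Il1rn, the interleukin-1 receptor antagonist, read 8.31, 7.71 and 7.73 in IDH1mut, 6.79, 6.84 and 6.82 in IDH1wt and 6.27, 6.79 and 6.41 in CTL. It rose by 1.43 ± 0.17 in IDH1mut against CTL and by 1.10 ± 0.17 against IDH1wt. Slfn2 (0.81 ± 0.11) and Mmp9 (0.69 ± 0.11), a gelatinase of neutrophil granules, rose too. Vcam1, an adhesion molecule, fell by 0.99 (SE 0.12) in IDH1mut and by 0.61 (SE 0.12) in IDH1wt, against CTL. Target genes thus passed in both directions. The counts were 5 rises and 2 falls without CTL replicate 1, 6 and 3 without CTL replicate 3 or IDH1mut replicate 2, and 8 and 8 without IDH1mut replicate 1. In IDH1wt against CTL 0 of 40 rose and 2 fell, Vcam1 and Ier3 (-0.77 ± 0.17), with calls that were lost without any 1 of 5 arrays for Vcam1 (CTL replicates 1 and 3 and each IDH1wt replicate; up to 0.108) and of 7 for Ier3 (all but IDH1mut replicates 1 and 3; up to 0.135). Without IDH1wt replicate 1 this count turned to 4 rises and 0 falls. It was 0 rises and 4 falls without IDH1mut replicate 1. Without CTL replicate 1 or 3 or IDH1wt replicate 2 or 3 it was 0 rises and 0 falls. In IDH1mut against IDH1wt 7 of 40 rose and 1 fell, with 3 rises without IDH1wt replicate 3 or IDH1mut replicate 2 and 4 without IDH1wt replicate 1 or IDH1mut replicate 1. Tnf, the cytokine, was among those that rose (0.47 ± 0.10; adjusted p = 0.00844), with levels of 6.71, 6.89 and 6.86 in IDH1mut against 6.44, 6.32 and 6.30 in IDH1wt, and 6.55, 6.69 and 6.53 in CTL. Slfn2 (0.81 ± 0.11) and Cd44 (0.48 ± 0.12) rose as well, Cd44 not without IDH1wt replicate 2 or 3 or IDH1mut replicate 1 or 2 (up to 0.0846).

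**Figure D3:**
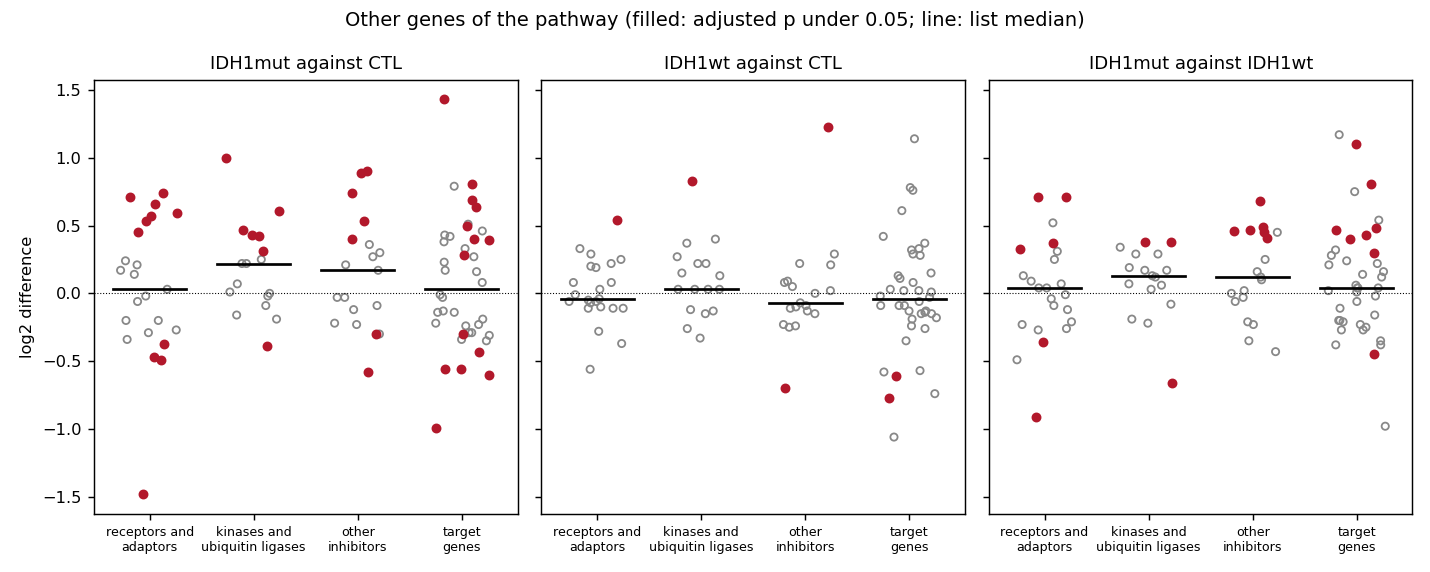
Log2 difference (y axis) of the genes in 4 lists of other pathway genes, in the 3 comparisons. Filled red points passed at an adjusted p under 0.05, open points did not, and the horizontal line is the list's median. In IDH1mut against CTL the points spread both ways, with medians of 0.03, 0.22, 0.17 and 0.03 from left to right.

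Markers of other cell types moved beside these genes. In IDH1mut against CTL 10.1% of all genes rose and 10.6% fell. Of 10 mature neutrophil markers 6 rose and 0 fell in IDH1mut against CTL, and leaving out any single array gave these same counts. The log2 difference was 2.17 for Mmp8, neutrophil collagenase, 1.57 for the decoy receptor gene Il1r2 and 1.03 for the chemokine receptor gene Cxcr2. In IDH1mut against IDH1wt 6 of the 10 rose too. Mmp8 alone rose in IDH1wt against CTL, a call kept only without CTL replicate 2 or IDH1mut replicate 1.

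Of 10 monocyte and macrophage markers 1 rose and 3 fell in IDH1mut against CTL, and 1 rose and 6 fell in IDH1mut against IDH1wt (1 fell without IDH1mut replicate 2 or 3, 2 without IDH1wt replicate 3 and 3 without IDH1wt replicate 2). The list averaged 9.05 to 9.52 on IDH1mut arrays, 9.56 to 9.68 on IDH1wt arrays and 9.39 to 9.51 on CTL arrays. Of 9 erythroid markers 8 rose in IDH1mut against CTL (5 without CTL replicate 2, and 6 or more without any other array), and 0 passed in either of the other comparisons (6 in IDH1wt against CTL without IDH1wt replicate 1, and 7 in IDH1mut against IDH1wt without IDH1wt replicate 2). Their mean level was 7.76 to 8.06 on IDH1mut arrays, 6.43 to 7.81 on IDH1wt arrays and 6.68 to 6.72 on CTL arrays, with IDH1wt replicate 1 the low one of its group.

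Of 9 B cell markers 2 rose in IDH1mut against CTL, the surrogate light chain genes Vpreb1 and Igll1 (0 without CTL replicate 1 or 3 or IDH1mut replicate 3), with list means of 6.31 to 7.12 on IDH1mut arrays, 5.03 to 6.23 on IDH1wt arrays and 5.73 to 6.78 on CTL arrays. Of 9 T and NK cell markers 3 rose, the T cell receptor complex genes Cd3d, Cd3g and Cd247 (1 without CTL replicate 2 or IDH1mut replicate 2 or 3), with list means of 4.87 to 5.12 on IDH1mut arrays, 4.45 to 4.63 on IDH1wt arrays and 4.68 to 4.72 on CTL arrays. In IDH1mut against IDH1wt the same genes rose, 2 of 9 B cell markers and 3 of 9 T and NK cell markers. These calls held without any single array. In IDH1wt against CTL 0 genes passed in either list. The part of all these markers in the differences of the NF-kB genes was not tested.

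Immediate early and stress genes, which cells switch on quickly when handled or stimulated, were followed as well. Of 14 such genes 6 fell and 1 rose in IDH1mut against CTL, and 8 fell and 0 rose in IDH1wt against CTL. The direction was the other one in IDH1mut against IDH1wt, where 4 rose and 1 fell, with a median log2 difference of 0.47. These 5 calls held without any single array, and the counts were 7 and 1 without IDH1mut replicate 2 and 4 and 3 without IDH1mut replicate 1. The log2 difference in IDH1mut against CTL was -4.29 for Hspa1a, an inducible HSP70 gene, and -2.62 for Jun. The list's mean level was 7.50 to 8.11 on IDH1mut arrays, 7.25 to 7.63 on IDH1wt arrays and 8.75 to 8.91 on CTL arrays, so that both IDH1 groups lay below CTL. Its part in the differences of the NF-kB genes was not tested.

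**Figure D4:**
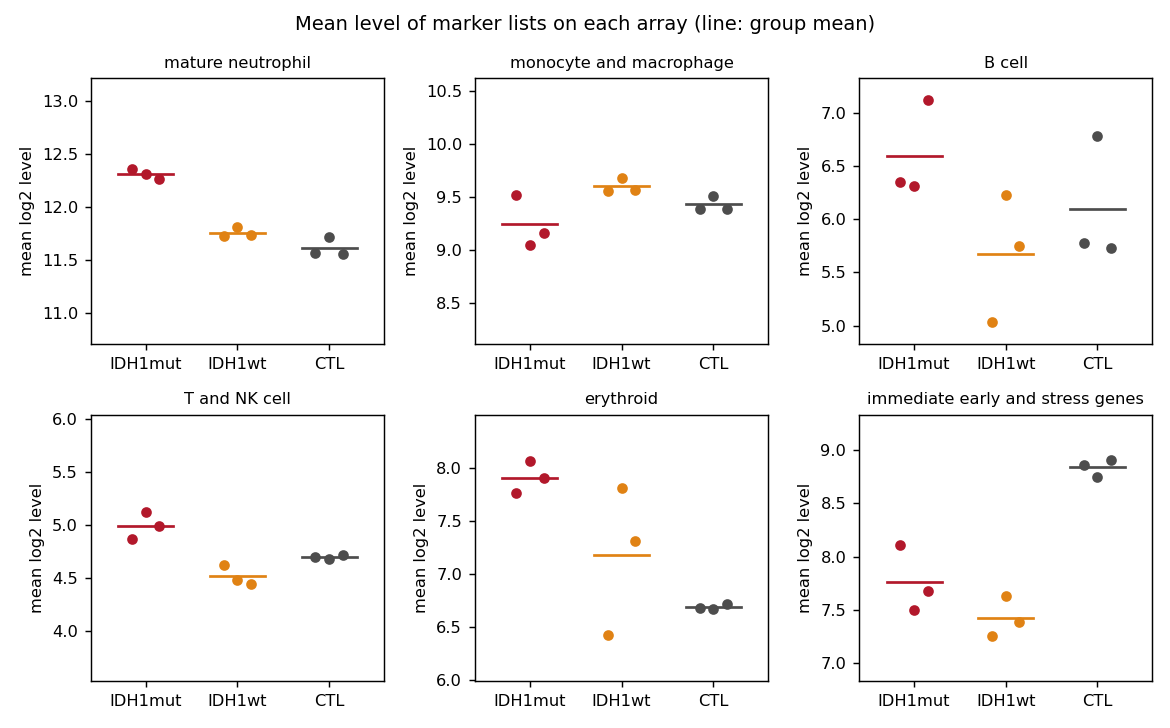
Mean log2 level (y axis) of 6 marker lists on each array (points), with the group mean (line), for IDH1mut, IDH1wt and CTL. Every panel spans the same range of log2 units. The mature neutrophil list is highest on the IDH1mut arrays (12.26 to 12.36) and the immediate early list highest on the CTL arrays (8.75 to 8.91).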

How the data were processed

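The authors deposited log2 expression values per probe set, made from biotin-labelled target of 3 µg total RNA per the labels' protocols. RMA, without a version, is the only tool in the submitters' processing notes. The scale was read from the values (1.72 to 14.2). RMA gives no detection call and compresses folds near the low end. Arrays number 3 a group, which limits the precision. Of 20877 probe sets, 17815 had 1 gene symbol in an annotation of 2016, 244 had several and 2818 none. Only those with 1 symbol were used.

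With limma 3.58.1 (R 4.3.3) a linear model of group means took in all 9 arrays, and 3 contrasts were tested two-sided with moderated variances and Benjamini-Hochberg adjustment over 17731 genes. Adjusted p-values come from this fit, except those given without a named array, which come from the same model refitted on the remaining arrays. The procedure was also run on simulated data, with independent normal errors and genes altered in IDH1mut alone. That run gives no support to the calls reported here. The alternatives, leaving out arrays among them, are listed in the closing section. Members and lists were chosen with earlier results of these data known. The text names all members, up to 4 passing genes per pathway list and comparison by size, and 2 nearest profiles for 3 members. Ikbkb, Tnip1, Ltbr, Fbxw11 against CTL and the marker genes were named after their values were seen.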

Additional observations from a re-analysis of the deposited data

How the results depend on the processing

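The settings tried were averaged probe sets per gene, single probe sets, genes above the median level, repeated quantile normalization, median centring, a fit on the 6 arrays compared, an intensity trend with robust variances, array weights, an unmoderated model, the replicate number as a block, and leaving out each array. Each measured member had 1 probe set, so averaged and single probe sets used the same member values as the main fit. These settings could hardly change a member's call and add no support, though they are counted among the 19. Under all 19, Nfkbia (0.44 to 0.57), Nfkbiz (0.58 to 0.74) and Tnfaip3 (0.45 to 0.59) passed in IDH1mut against CTL, and Nfkbiz (0.67 to 0.87) in IDH1mut against IDH1wt. Relb passed in 14, Nfkbie in 8 and Bcl3 in 6 of 19 in IDH1mut against CTL, and in IDH1mut against IDH1wt Nfkbia and Rel in 4 each and Nfkbie and Bcl3 in 1 each. The count of members that passed in IDH1mut against CTL, 5, was 3 to 5 without single arrays (3 without CTL replicate 1 or CTL replicate 3) and 4 with the replicate number as a block, which lost Nfkbie and changed no other member's call. Deviations of same-numbered arrays correlated at -0.0857 to 0.0257 over 9 pairs, 0 of them over 0.1. Whether same-numbered arrays came from the same transduction or mice was not tested. The count of members that passed was 0 throughout in IDH1wt against CTL. Against IDH1wt, 1 member passed in IDH1mut, and 1 to 3 without single arrays (3 without IDH1wt replicate 1, 2 without IDH1mut replicate 2). The count there was 4 for genes above the median level, where 2827 of the 8865 genes tested passed. It was 2 with repeated quantile normalization (2376 of 17731 genes), 3 with the intensity trend (2821) and 2 with array weights (2557). The cause of these counts was not tested. Differences that did not pass changed sign as follows. In IDH1mut against CTL, Nfkb2 ran from -0.09 to 0.06 without single arrays, reading 0.01 and 0.02 with a CTL array left out (replicates 1 and 3) and 0.06 with IDH1mut replicate 2 left out. In IDH1wt against CTL, it read -0.02 with array weights and ran from -0.02 to 0.13 without single arrays, and Bcl3 read 0.04 with array weights and ran from -0.20 to 0.12 without single arrays. In IDH1mut against IDH1wt, Nfkb2 ran from -0.15 to 0.00 and Rela from -0.05 to 0.04 without single arrays. The cause was not tested. Over all genes, 3663 passed in IDH1mut against CTL, and 2370 without CTL replicate 1. In IDH1wt against CTL 414 passed, and the count was 1226 with array weights, 717 with the intensity trend, 58 unmoderated, 132 and 145 without CTL replicates 1 and 3, and 211 and 145 without IDH1wt replicates 2 and 3. For IDH1mut against IDH1wt 2363 passed, and 1475 and 1528 did without IDH1wt replicate 3 and IDH1mut replicate 2.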
